A study of Mus musculus with 24 samples.

Results

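Cytosolic RNA sensors and effectors were described here through 6 genes, taken as the entries of the gene table whose gene name was Ddx58, Ifih1, Dhx58, Mavs, Eif2ak2 or Adar. All 6 were found once among 54532 genes, and all 6 passed the filter on low values in every fit. The RNA came from bone marrow-derived dendritic cells (BMDCs, cultured with GM-CSF and IL-4) and bone marrow-derived macrophages (BMDMs, cultured in medium conditioned by L929 fibroblasts) of C57BL/6N mice. WT denotes Tmem173 fl/fl mice and CRE denotes Tmem173 fl/fl mice that also carried the tamoxifen-inducible Lyz2-Cre ert2. Floxed alleles were thus common to both labels. The study's methods give tamoxifen to both genotypes to delete Tmem173, but do not state it for the bone marrow of these cultures. Lyz2 drives the recombinase in myeloid cells, and Tmem173 encodes STING, a sensor adaptor of the cytosolic DNA pathway. Cells were either left without agonist (control) or given DMXAA, which binds and activates STING of the mouse. The series text puts its concentration at 40 µM, whereas the study's methods give doses in µg/mL, so the concentration is uncertain. The study gives ages and exposure times for other experiments, and none is tied to these libraries. Each of the 8 groups held 3 libraries.

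Cells detect viral RNA in the cytosol with RIG-I (Ddx58) and MDA5 (Ifih1), helicases that bind short 5′-triphosphate RNA and long double-stranded RNA respectively. LGP2 (Dhx58) is a related helicase without signalling domains of its own that tunes both. RIG-I and MDA5 signal through MAVS, an adaptor on the outer mitochondrial membrane, to the kinase TBK1 and to type I interferon. Among the effectors, PKR (Eif2ak2) is activated by double-stranded RNA and phosphorylates eIF2α to halt translation, and ADAR1 (Adar) edits adenosine to inosine in double-stranded RNA, which keeps the cell's own RNA from triggering MDA5 and PKR. Several of these genes are known as interferon-stimulated genes in myeloid cells, where the STING pathway also leads to interferon.

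The genes lie on 5 chromosomes in GRCm38, and their start and end in the table matched GENCODE M21 for all 6. Ddx58 spans chr4:40203773-40239828 on the minus strand, Ifih1 chr2:62595798-62646255 on the minus strand, and Dhx58 chr11:100694884-100704271 on the minus strand. Mavs spans chr2:131234063-131248025 on the plus strand, Eif2ak2 chr17:78852564-78882573 on the minus strand, and Adar chr3:89715022-89753446 on the plus strand. Exons of 3 members overlap exons of genes on the other strand, and the counting is not stated to use strand. Chrnb2 shares 1365 of the 8118 exon bases of Adar and had at most 136 counts in any library, Gm26637 shares 174 of 5113 bases of Eif2ak2 with at most 197 counts, and Dhx58os shares 141 of 3272 bases of Dhx58 with at most 70 counts. A 5S rRNA gene also overlaps Eif2ak2 by 47 bases, with at most 2 counts. Counts are per gene, so the interferon-inducible long form and the constitutive short form of ADAR1 could not be separated.

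Promoter windows from RefSeq (GRCm38.p6, 250 bases before to 50 after each transcript start) were at hand for 5 of the 6 members, with 3 windows for Adar and none for Dhx58. They were searched on both strands for GAAANNGAA, the spaced GAAA-type repeat of interferon-stimulated response elements, and for TTCNNNGAA, a STAT-type palindrome. The stretches of 30 bases below are shown because they hold the GAAANNGAA match nearest to the start site in the 4 members that have one, and their capitals mark the match or overlapping matches. In Ddx58 the match is on the opposite strand and reads as its reverse complement.
Ddx58, chr4:40239803-40239832, minus strand: ctgaggcagtTTCGATTTCctatggccagc
Ifih1, chr2:62646206-62646235, minus strand: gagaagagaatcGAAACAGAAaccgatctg
Eif2ak2, chr17:78882535-78882564, minus strand: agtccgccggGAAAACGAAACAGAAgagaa
Adar, chr3:89730738-89730767, plus strand: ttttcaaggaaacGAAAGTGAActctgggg
These matches begin 3 bases after the RefSeq start site in Ddx58, 18 and 24 bases after it in Eif2ak2, 32 bases after it in Ifih1 and 33 bases after it in Adar. Ifih1 has a further match 112 bases before its start, and the same Adar window has one 249 bases before its start. The Adar window is the one at the inner start site (89730718), and the windows at 89715022 and 89715238 hold no match. The Mavs window (chr2:131233813-131234112) holds none either. Over all 32851 windows, 8.56% hold GAAANNGAA and 1.34% hold it after the start site. TTCNNNGAA is in 8.30% of windows, among them that of Eif2ak2, 178 bases before the start, and the inner window of Adar, 22 bases after it. The 2 motifs were searched separately, and a match describes letters only.

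Several libraries stood apart before any member was considered. Total counts ranged from 15657347 to 18912887 per library. The 4 BMDM libraries numbered 3 had 0 of 5 leukocyte markers (Ptprc, Cd52, Coro1a, Laptm5, Itgb2) at an FPKM (a level scaled to gene length and library size) of 1, with a summed level of 0.249 to 1.15 against 869 to 1418 FPKM in the other 8 BMDM libraries. Their 6 fibroblast markers summed to 1215 to 1975 FPKM, against 6.69 to 73.0 FPKM. They are therefore shown apart and entered no main test. All 6 macrophage markers were at 1 FPKM or more in the other BMDM libraries and in every BMDC library, and 4 of 6 dendritic cell markers were so in every BMDC library, where that list summed to 693 to 1459 FPKM against 43.4 to 119 FPKM in BMDM libraries 1 and 2, and the exceptions were Cd209a and Flt3. In both BMDC CRE libraries numbered 2 the 5 neutrophil markers had a higher sum (229 to 437 against 11.9 to 25.5 FPKM), carried by S100a8, S100a9 and Elane, while Ly6g was lower (0 to 0.337 against 0.532 to 2.29 FPKM) and Mpo was at most 0.0564 FPKM. The sum of the 6 macrophage markers was lower there (1083 to 1227 against 4301 to 6177 FPKM), mostly through Lyz2. Mrc1 (3.836 to 4.997 against 10.01 to 28.89 FPKM) and Cd14 (38.65 to 44.23 against 46.43 to 87.02 FPKM) were also lower without overlap. Csf1r (44.3 to 46.2 against 22.1 to 54.4 FPKM), Fcgr1 and Adgre1 overlapped the other libraries. Of the dendritic cell markers, H2-Ab1 was lower there (108.8 to 113.3 against 183.5 to 500.9 FPKM) and Flt3 higher (0.854 to 1.45 against 0.06376 to 0.4781 FPKM). Both BMDM WT libraries numbered 2 had a higher sum of the fibroblast markers (61.7 to 73.0 against 6.69 to 9.76 FPKM). Thy1 of that list was the exception and was not raised (0.0791 to 0.1156 against 0.01635 to 0.2067 FPKM). The SD of the log2 ratio between 2 libraries over abundant genes was 0.147 for the BMDM CRE controls and 0.171 for the BMDM CRE DMXAA libraries, but 0.762 and 0.708 for the corresponding WT libraries. In BMDCs the closest pairs (0.162 to 0.180) joined a WT with a CRE library in 4 of 4 cases, namely WT number 3 with CRE number 1 and WT number 2 with CRE number 3 in both treatments. All 6 close pairs differed by more than sampling noise and were kept as separate samples. Transcripts of the targeted gene separated the labels in part only. Tmem173 was at 28.8 to 55.3 FPKM in BMDC WT and 19.7 to 36.9 FPKM in BMDC CRE libraries, and at 9.91 and 14.7 against 8.76 and 10.4 FPKM in BMDM controls 1 and 2, all overlapping, whereas treated BMDM libraries 1 and 2 had 22.8 and 31.9 FPKM in WT and 9.12 and 10.1 FPKM in CRE. Counts per gene do not show whether the floxed exons were lost. WT and CRE below are the labels.

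In untreated cells MAVS was the most abundant of the 6 transcripts per length, and the helicases were low. Mavs was at 12.1, 13.3 and 12.8 FPKM in the 3 BMDC WT controls, whereas Ddx58 was at 2.64, 3.52 and 2.94 FPKM, Ifih1 at 2.07, 2.43 and 2.25 FPKM and Dhx58 at 2.09, 3.31 and 2.57 FPKM. Eif2ak2 (5.39, 5.40 and 5.29 FPKM) and Adar (3.75, 6.11 and 6.01 FPKM) lay between them. In the BMDC CRE controls Mavs was at 12.6, 8.50 and 14.7 FPKM, and the ratio of Mavs to Ddx58 ranged from 3.79 to 6.82 over the 6 BMDC controls. BMDM controls 1 and 2 had the same order of Mavs over the helicases, with a ratio of 2.84 to 4.89 to Ddx58 over 4 libraries. After DMXAA this ratio was 0.0952 to 0.131 in BMDCs and 0.0378 to 0.192 in BMDM libraries 1 and 2. Ddx58 thus lay above its adaptor in every treated library of these, and below it in every control.

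**Figure D1:**
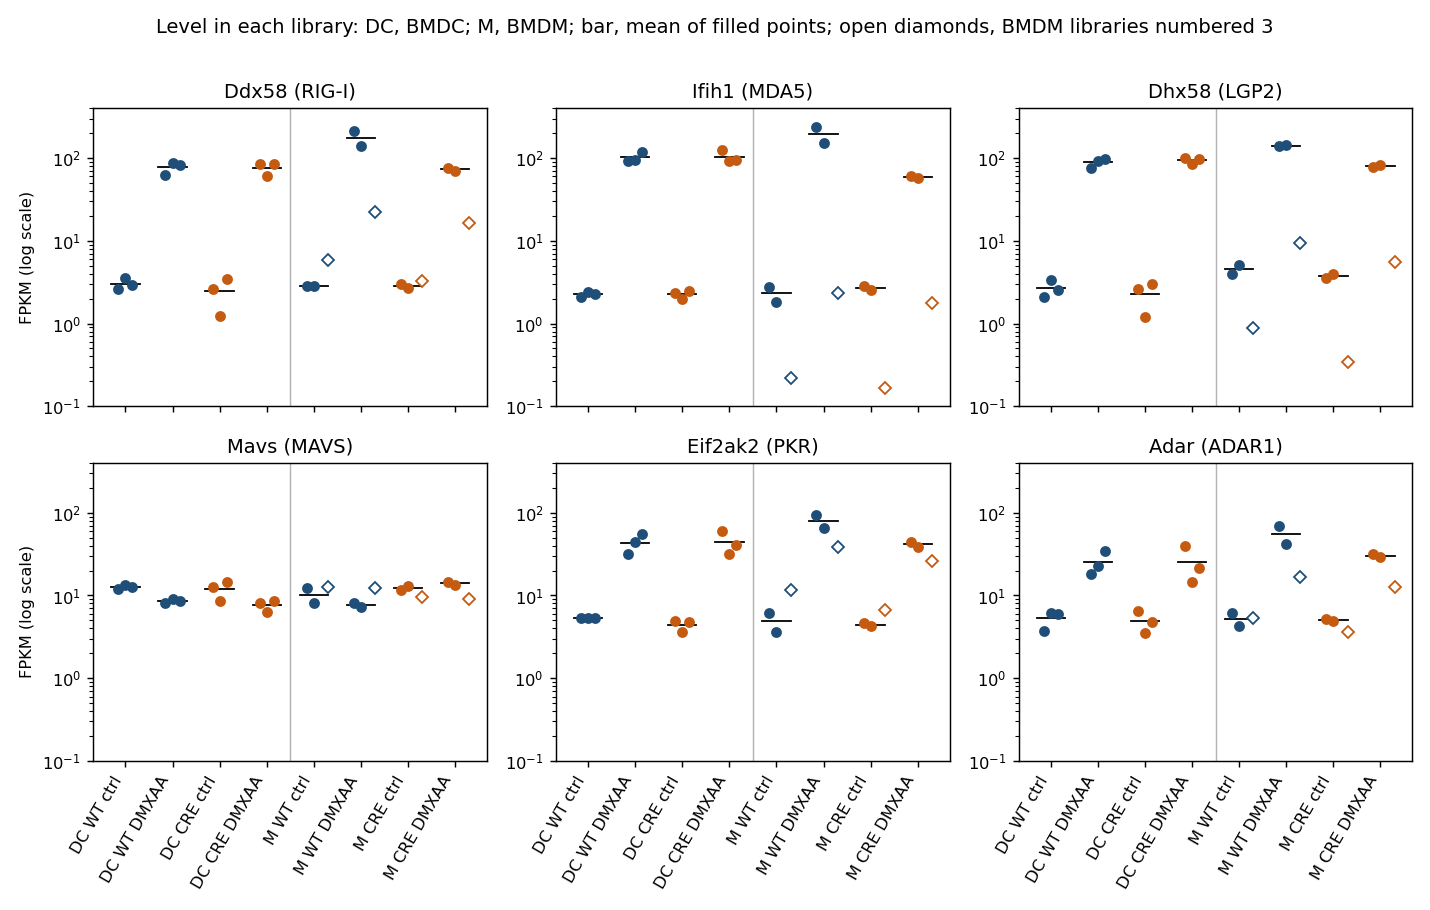
FPKM (log scale) of the 6 genes in each of the 24 libraries, by group, with the WT label in blue and the CRE label in orange; bars are means of the filled points and open diamonds are the BMDM libraries numbered 3. For 5 of the genes the filled points of control and DMXAA do not overlap within either cell type, while Mavs lies between 6.27 and 14.7 FPKM in all libraries.

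The first question was whether levels of the RNA sensors differed between DMXAA and control in BMDCs. All 3 helicases, PKR and ADAR1 rose in WT BMDCs, and MAVS fell. Ifih1 reached 91.8, 96.2 and 119 FPKM after DMXAA, each above every control value, a 44.7-fold rise (95% confidence interval 32.4 to 61.6, edgeR adjusted p = 3.46e-08). Ddx58 reached 62.0, 86.3 and 83.2 FPKM, a log2 fold change of 4.65 ± 0.36 (SE, 3 against 3 libraries, adjusted p = 4.51e-06 in edgeR). Dhx58 was at 76.5, 92.9 and 98.9 FPKM after DMXAA, 5.05 ± 0.34 on the log2 scale. By point estimate the helicases shared rises of more than 20-fold, with lower interval limits of 14.5-fold for Ddx58 and 19.7-fold for Dhx58. By its mean Ifih1 had the lowest control level and the highest treated level of the 6.

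The effectors rose too, with smaller fold changes. PKR transcripts (Eif2ak2) were at 31.3, 44.0 and 55.7 FPKM in treated WT BMDCs, an 8.05-fold rise (5.24 to 12.4, adjusted p = 1.91e-05 in edgeR). Adar was at 18.3, 22.6 and 34.4 FPKM, a 4.68-fold rise (2.53 to 8.64, adjusted p = 0.00157 in edgeR). The ratio of Adar to Eif2ak2 was 0.695 to 1.32 in the 6 BMDC controls and 0.462 to 0.666 in the 6 treated libraries, so it was lower in every treated BMDC library than in any BMDC control. Mavs moved the other way, from 12.1, 13.3 and 12.8 to 8.10, 9.14 and 8.68 FPKM, without overlap, a log2 fold change of -0.58 ± 0.20 (adjusted p = 0.0446 in edgeR). That Mavs call was lost under median-of-ratios scaling (adjusted p = 0.0529), without the filter (0.0868), with replicate number as a block across the labels (0.0515), in limma with a pseudocount of 0.1 (0.0515) and on leaving out any 1 of the 6 libraries (0.0744 to 0.13), at log2 fold changes of -0.62 to -0.52. It was kept with the number as a block within genotype, the pairing read from the correlations of deviations, and the ratio of DMXAA to control was 0.672, 0.686 and 0.681 in numbers 1, 2 and 3. With all 6 members called and 5 of them higher, the background was 32.2% of 12126 genes called in either direction and 17% called higher. The median log2 fold change was 3.83 over the members and 0.01 over all genes tested. In bulk RNA, fewer cells of a type and less RNA per cell cannot be told apart.

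CRE BMDCs gave the same list of 5 higher and 1 lower, beside 25.4% of genes called in either direction and 14% called higher. Ifih1 rose 45.4-fold (32.9 to 62.5, adjusted p = 3.90e-08 in edgeR) and reached 124, 91.9 and 95.8 FPKM. Ddx58 rose to 84.6, 60.4 and 84.9 FPKM and Dhx58 to 99.8, 83.8 and 97.8 FPKM, log2 fold changes of 4.95 ± 0.37 and 5.34 ± 0.34. Eif2ak2 was at 59.7, 31.4 and 40.7 FPKM after DMXAA and Adar at 39.7, 14.5 and 21.6 FPKM. Values of Adar in treated BMDCs ran with the close pairs named above: 34.4 and 39.7 FPKM in WT number 3 and CRE number 1, 22.6 and 21.6 FPKM in WT number 2 and CRE number 3. In the same order Ifih1 had 119 and 124, then 96.2 and 95.8 FPKM, and Eif2ak2 had 55.7 and 59.7, then 44.0 and 40.7 FPKM. Ddx58 (83.2 to 86.3 FPKM) and Dhx58 (92.9 to 99.8 FPKM) were close over all of these libraries. The part of that closeness in the comparison of labels was not tested. Mavs fell from 12.6, 8.50 and 14.7 to 8.05, 6.27 and 8.59 FPKM (log2 fold change -0.67 ± 0.20, adjusted p = 0.0294 in edgeR), where control number 2 overlapped the treated range. This call was lost in the fit of the 2 groups alone (adjusted p = 0.135) and on leaving out control number 1 or 3 or DMXAA number 1 or 2 (0.0553 to 0.128).

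**Figure D2:**
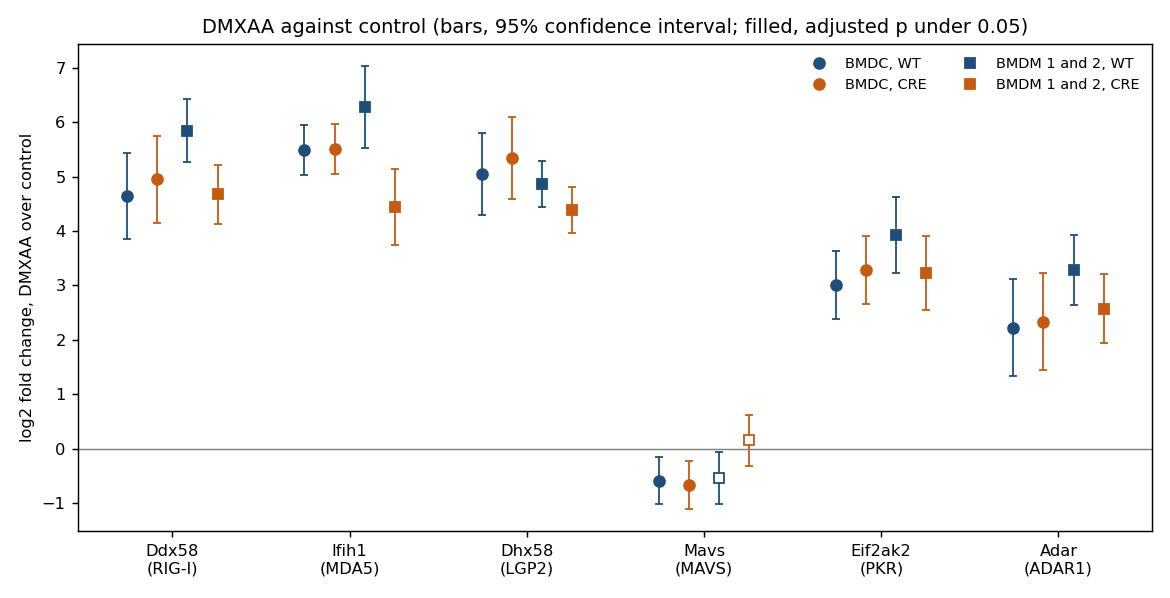
Log2 fold change of DMXAA over control for the 6 genes, with 95% confidence intervals; circles are BMDCs, squares are BMDM libraries 1 and 2, and filled symbols passed an adjusted p of 0.05. The 3 helicases lie between 4.39 and 6.27, Eif2ak2 and Adar between 2.23 and 3.92, and Mavs between -0.67 and 0.16.

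Whether the CRE label altered these levels in BMDCs was asked in each treatment and for the response itself. None of the 6 genes was called in edgeR in any of the 3 comparisons, where 0% of 12126 genes was called in treated cells, 0% in controls and 0% for the interaction. No member had an unadjusted p under 0.05, and DESeq2 and limma called 0 of the 6 as well. In treated BMDCs the mean level with CRE was 99.3% of WT for Ddx58, 102% for Ifih1, 105% for Dhx58, 101% for Eif2ak2, 101% for Adar and 88.4% for Mavs. The intervals show what these libraries could not resolve, since that of Ifih1 ran from 0.785-fold to 1.33-fold and that of Adar from 0.564-fold to 1.82-fold. In controls the widest interval was again that of Adar (0.520-fold to 1.69-fold), and the CRE library numbered 2, with high S100a8 and S100a9, was the lowest of its group for all 6 members. For Ddx58 it had 1.25 FPKM beside 2.65 and 3.43 FPKM, and for Mavs 8.50 beside 12.6 and 14.7 FPKM. With both of those libraries left out, the number of members called was 0 in each of these comparisons. It was 6 for DMXAA against control in either label, beside 4821 genes called in WT and 3805 in CRE.

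The same questions were asked of BMDM libraries 1 and 2. All 3 helicases and both effectors rose with DMXAA in the WT label, and the levels reached were the highest of the series. Ifih1 went from 2.79 and 1.85 to 237 and 151 FPKM, a 77.3-fold rise (45.8 to 130, adjusted p = 3.46e-05 in edgeR). Ddx58 went from 2.85 and 2.86 to 214 and 141 FPKM, a 57.4-fold rise (38.5 to 85.6, adjusted p = 1.87e-05 in edgeR). Dhx58 went from 3.95 and 5.10 to 142 and 142 FPKM, a log2 fold change of 4.86 ± 0.18. WT number 1 was above number 2 after DMXAA for 4 of the 5 genes that rose, Dhx58 being the exception at 142 FPKM in both.

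PKR transcripts rose 15.1-fold in WT BMDMs, from 6.10 and 3.62 to 93.1 and 65.4 FPKM (interval 9.33 to 24.5). Adar rose 9.75-fold, from 6.18 and 4.33 to 68.6 and 42.1 FPKM (interval 6.23 to 15.3). Mavs was at 12.4 and 8.12 FPKM in controls and 8.09 and 7.2 FPKM after DMXAA, a log2 fold change of -0.53 ± 0.20 that did not pass (adjusted p = 0.0777 in edgeR). With replicate number as a block within genotype it passed (adjusted p = 0.0277 in edgeR), as it did without WT control number 2 (adjusted p = 0.0071), the library with fibroblast markers. These 5 calls stood beside 39.2% of 11569 genes called in either direction and 18.4% called higher, and the median log2 fold change was 4.39 over the members and -0.08 over all genes tested.

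In CRE BMDMs the same 5 genes rose, beside 10% of genes called in either direction and 7.28% called higher. Ifih1 went from 2.86 and 2.54 to 60.9 and 57.9 FPKM, a 21.6-fold rise (13.4 to 35.0, adjusted p = 0.00021 in edgeR). Ddx58 reached 76.9 and 70.7 FPKM (25.5-fold) and Dhx58 78.5 and 82.1 FPKM (20.9-fold). Eif2ak2 reached 44.7 and 39.0 FPKM (9.35-fold) and Adar 31.4 and 29.3 FPKM (5.96-fold). Mavs was at 11.7 and 13 FPKM without and 14.4 and 13.6 FPKM with DMXAA, a log2 fold change of 0.16 with an interval of -0.32 to 0.63. When all 12 BMDM libraries entered the fit, 0 of the 6 members were called in either label, at log2 fold changes of 5.05 for Ddx58 and 6.30 for Ifih1 in WT.

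Treated BMDMs differed between the labels. The 3 helicases were lower in CRE than in WT and Mavs was higher, 4 of the 6 members called beside 19.2% of genes. Ifih1 differed most, at 30.7% of the WT mean (log2 difference -1.65 ± 0.26, adjusted p = 0.0076 in edgeR). Ddx58 was at 41.6% (-1.21 ± 0.20, adjusted p = 0.00895) and Dhx58 at 56.6% (-0.77 ± 0.15, adjusted p = 0.016), both by edgeR. Mavs was at 183% of the WT mean (0.92 ± 0.20, adjusted p = 0.0241 in edgeR). Eif2ak2 (52.8%, adjusted p = 0.0616) and Adar (54.9%, adjusted p = 0.0659) did not pass in edgeR, although both CRE libraries were below both WT libraries for each of them. Both passed with replicate number as a block (adjusted p = 0.0177 and 0.0273 in edgeR) and without the filter (0.000532 and 0.00124), and DESeq2 called all 6. Over all genes these 3 fits called 2479, 3630 and 2899, against 2227 in the main fit. Without CRE DMXAA number 1 or number 2 the count fell to 0, with adjusted p from 0.0765 to 0.155 for the 4 genes and log2 differences of -1.71 to 0.96. Without WT DMXAA number 1 it was 3, and without WT DMXAA number 2 it was 5. The spread in this fit is pooled over CRE pairs that lie close together and WT pairs that do not, and the WT libraries numbered 2 carry fibroblast markers, whose part in the difference was not tested. With both WT libraries numbered 2 left out, the differences kept their sign (Eif2ak2 -1.09, Adar -1.11). Only WT number 1 then stood for each WT group, and the spread came from the CRE pairs alone.

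**Figure D3:**
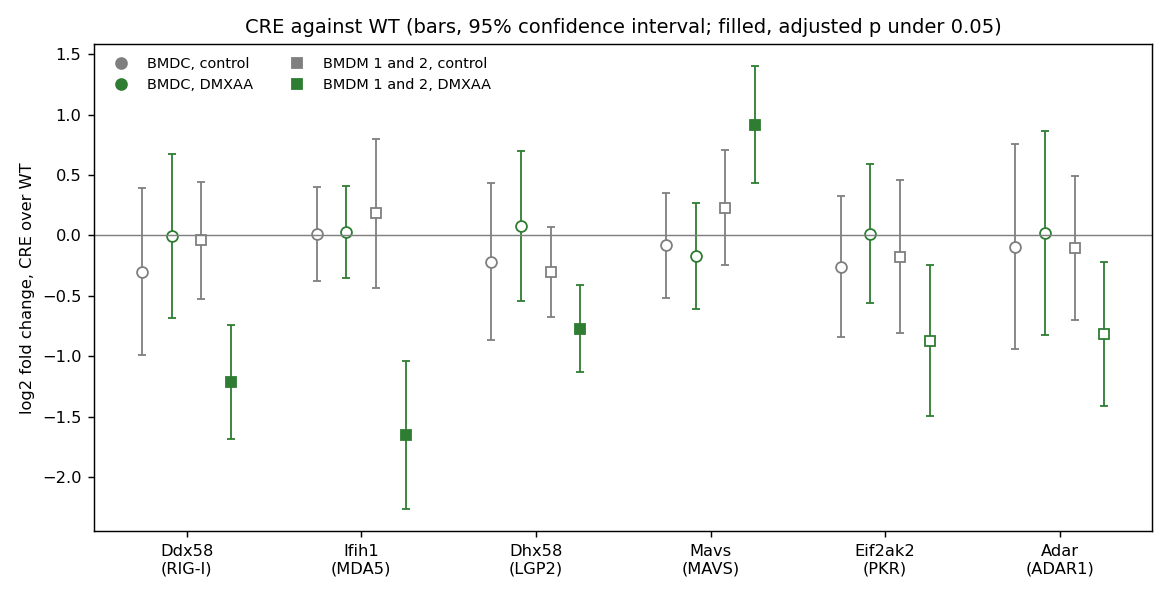
Log2 fold change of CRE over WT for the 6 genes, with 95% confidence intervals, in control (grey) and DMXAA-treated (green) cells; circles are BMDCs, squares are BMDM libraries 1 and 2, and filled symbols passed an adjusted p of 0.05. Filled symbols appear in treated BMDMs only, from -1.65 for Ifih1 to 0.92 for Mavs.

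BMDM controls 1 and 2 gave 0 of 6 members called between the labels in edgeR, DESeq2 and limma, with no unadjusted p under 0.05, beside 0.0432% of genes. Dhx58 had the largest log2 difference, -0.30 with an interval of -0.68 to 0.07. The difference between the responses was tested directly. Ifih1 was the only member called, with a response 3.57-fold smaller in CRE (interaction -1.84 ± 0.36 on the log2 scale, adjusted p = 0.0477 in edgeR), beside 3.66% of genes. Ddx58 followed at -1.17 ± 0.28 (adjusted p = 0.0797 in edgeR), and Mavs at 0.69 ± 0.28 had an unadjusted p of 0.0467. The call of Ifih1 was lost without WT DMXAA number 1 (adjusted p = 0.0769) and without any 1 of the 4 CRE libraries (0.195 to 0.226). With replicate number as a block within genotype 4 members were called (Ddx58, Ifih1, Eif2ak2 and Adar), beside 14.7% of genes under that block. The numbers pair libraries less clearly here, since the correlation of deviations between control and DMXAA was 0.674 in WT but 0.00493 in CRE over numbers 1 and 2.

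The BMDM libraries numbered 3 were single libraries per group, so their values carry no test and their intervals cover counting error only. The 5 genes that rose elsewhere were also higher with DMXAA here, and Mavs was not. In the WT label Ddx58 was at 5.80 FPKM in the control and 22.0 FPKM in the treated library, a ratio of 3.80 (3.54 to 4.08). Ifih1 was at 0.222 and 2.35 FPKM, or 43 and 466 counts, a ratio of 10.6 (7.74 to 14.8). Dhx58 was at 0.888 and 9.54 FPKM, Eif2ak2 at 11.6 and 38.5 FPKM and Adar at 5.35 and 16.5 FPKM. Mavs had a ratio of 0.974 (0.891 to 1.07) in WT and 0.941 (0.847 to 1.05) in CRE. With the CRE label the ratios were 5.03 for Ddx58, 10.7 for Ifih1, 15.9 for Dhx58, 3.96 for Eif2ak2 and 3.5 for Adar.

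The balance between the helicases was another one in these libraries. Ifih1 was at 0.0382 to 0.108 of the FPKM of Ddx58, against 0.645 to 1.11 in BMDM libraries 1 and 2. Control levels of Ddx58 (3.29 and 5.80 FPKM) and Eif2ak2 (6.62 and 11.6 FPKM) lay above all 4 other BMDM controls, whose highest values were 3.05 and 6.10 FPKM, while Ifih1 (0.168 and 0.222 FPKM) and Dhx58 (0.346 and 0.888 FPKM) lay below them. After DMXAA all 5 genes were below the other 4 treated BMDM libraries. Mavs overlapped them in both treatments, at 8.98 to 12.5 FPKM.

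**Figure D4:**
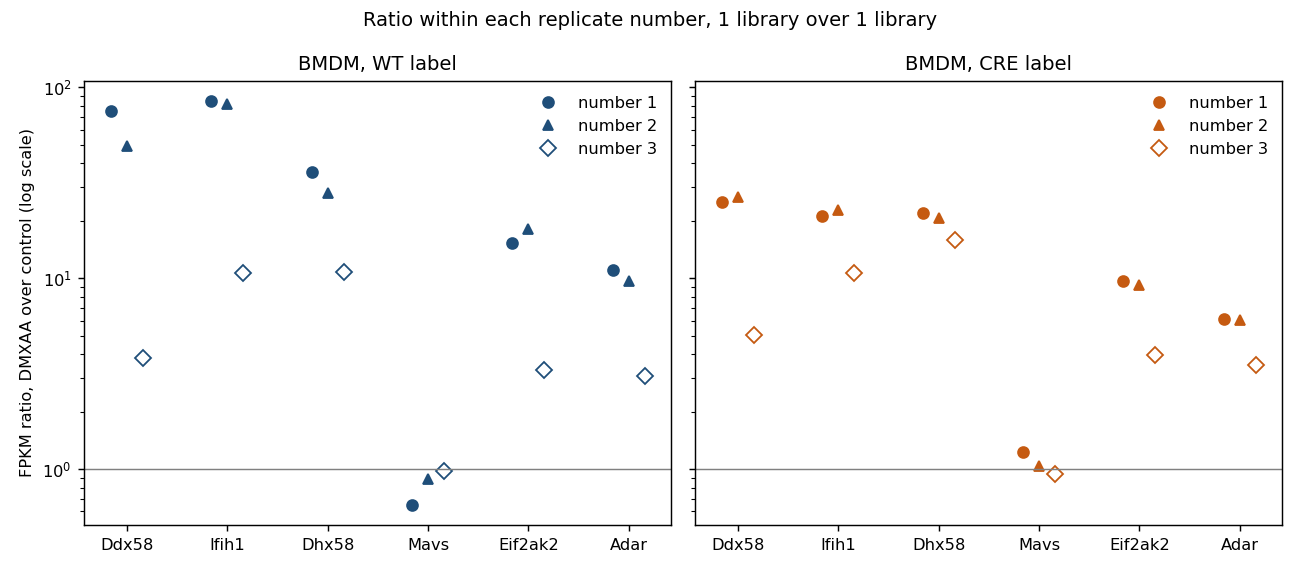
Ratio of DMXAA to control FPKM within each replicate number (1 library over 1 library, log scale) for BMDMs of the WT and CRE labels; open diamonds are the libraries numbered 3. For the 5 genes that rose, the diamonds lie lowest, between 3.09 and 15.9, and for Mavs all points lie between 0.651 and 1.23.

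Between the cell types, WT BMDCs and BMDM libraries 1 and 2 were compared in 1 fit of 20 libraries. Without DMXAA only Dhx58 differed, lower in BMDCs by 0.82 on the log2 scale (SE 0.28, adjusted p = 0.0394 in edgeR), 1 of 6 members beside 28.5% of genes. That call was lost in 11 of 16 alternatives, among them leaving out any 1 of 4 of the 5 libraries. With DMXAA, 4 members were lower in BMDCs, beside 30.6% of genes. Ddx58 was lower by 2.21-fold (adjusted p = 0.0103), Ifih1 by 1.83-fold (adjusted p = 0.00585), Eif2ak2 by 1.75-fold (adjusted p = 0.04) and Adar by 2.12-fold (adjusted p = 0.0411), all by edgeR. Without BMDM WT DMXAA number 1, which was the highest library of the series for these 4 genes, 0 members were called, and without BMDC WT DMXAA number 1 or number 2 the count was 2. Dhx58 (-0.61, adjusted p = 0.1) and Mavs (0.23, adjusted p = 0.474) did not pass in edgeR. The responses themselves gave 0 of 6 calls in edgeR, beside 2.61% of genes, 0 in DESeq2 and 0 in limma. An unadjusted p under 0.05 in edgeR was reached by 3 members, beside 1817 of 13368 genes. With the block within genotype 4 were called, beside 11% of genes under it.

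Over the 8 groups, each of the 5 genes that rose had its highest mean in WT BMDMs with DMXAA, and that group did not overlap the next. For Ddx58 the treated BMDCs of both labels and the treated CRE BMDMs followed at 77.2, 76.6 and 73.8 FPKM on average, overlapping each other. For Ifih1 both BMDC groups (104 and 102 FPKM) lay above treated CRE BMDMs (59.4 FPKM) without overlap. For Dhx58 and Eif2ak2 the same 3 groups followed, each overlapping the next in order, and for Adar the treated CRE BMDMs (30.4 FPKM) overlapped both BMDC groups (25.3 and 25.1 FPKM). The 4 control groups overlapped their neighbours for every member, apart from Dhx58, where the BMDM controls lay above the BMDC controls. Mavs had its highest mean in treated CRE BMDMs (14.0 FPKM) and low means in treated WT BMDMs and treated CRE BMDCs, which overlapped.

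Profiles over these 20 libraries were compared after centring each gene's log2 CPM, by the root mean square difference. Ddx58 and Dhx58 were each other's near neighbours (0.320), Ifih1 lay 0.400 from Ddx58, and Eif2ak2 and Adar lay 0.455 from each other. Mavs was 1.56 or more from every other member. Among 13368 genes, Ddx58 was nearest to Xaf1 (0.279), Dhx58 and Irgm2 (0.368), Ifih1 to Irgm2 (0.330), Ifi47 and Xaf1, and Dhx58 to Xaf1 (0.317), Ddx58 and Irgm1. Eif2ak2 was nearest to Sp100 (0.247), Dtx3l and Trafd1, and Adar to Rnf31 (0.283), Arel1 and Fbxw17. Mavs was nearest to Adipor2 (0.132), Slc25a36 and Nfatc3. The members themselves had SDs of 1.34 to 2.74 on this scale, and 0.385 for Mavs, and the libraries share control and treated groups, so these distances are descriptions.

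The wider pathway was followed with a list of 55 genes, of which 51 passed the filter. In BMDCs 21 were higher and 4 lower with DMXAA in WT, and 21 higher and 2 lower in CRE, with a median log2 fold change of 0.32 and 0.30. Over all genes 17% and 14% were called higher, against which the small sublists (3 of 11 and 1 of 5) show nothing particular. Of all 12126 genes, 1848 were called lower in WT and 1382 in CRE. Of 12 cofactors of the helicases, 6 rose in each label. Ddx60, a helicase cofactor, had the largest log2 fold change among them (5.85 ± 0.50 in WT and 5.82 ± 0.49 in CRE). Nlrx1, a mitochondrial regulator of MAVS, fell (-1.02 and -0.78).

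Of 16 genes below MAVS, 8 rose in each BMDC label. Irf7, the interferon regulatory factor, rose by 7.23 ± 0.36 in WT and 7.56 ± 0.37 in CRE on the log2 scale, and Tomm70a, the import receptor that binds MAVS, rose least in CRE (0.98). Irf3 fell in WT (-0.59 ± 0.15, adjusted p = 0.00958 in edgeR). Of 7 other RNA sensors, 3 rose in each label, led by the endosomal sensor Tlr3 (5.40 and 5.52) and with Tlr7 the least (2.04 and 1.92). In the PKR branch of 11 genes, a sublist that also holds the other eIF2α kinases, 3 rose and 1 fell in each label. Ppp1r15a, a regulatory subunit of the eIF2α phosphatase, rose most (2.21 and 1.63), and the kinase Eif2ak3 (PERK) fell (-1.08 and -0.89). Of 5 tested genes of double-stranded RNA handling, Stau1 alone rose (1.07 and 1.06). None of the 51 genes was called between the labels in BMDCs in edgeR.

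**Figure D5:**
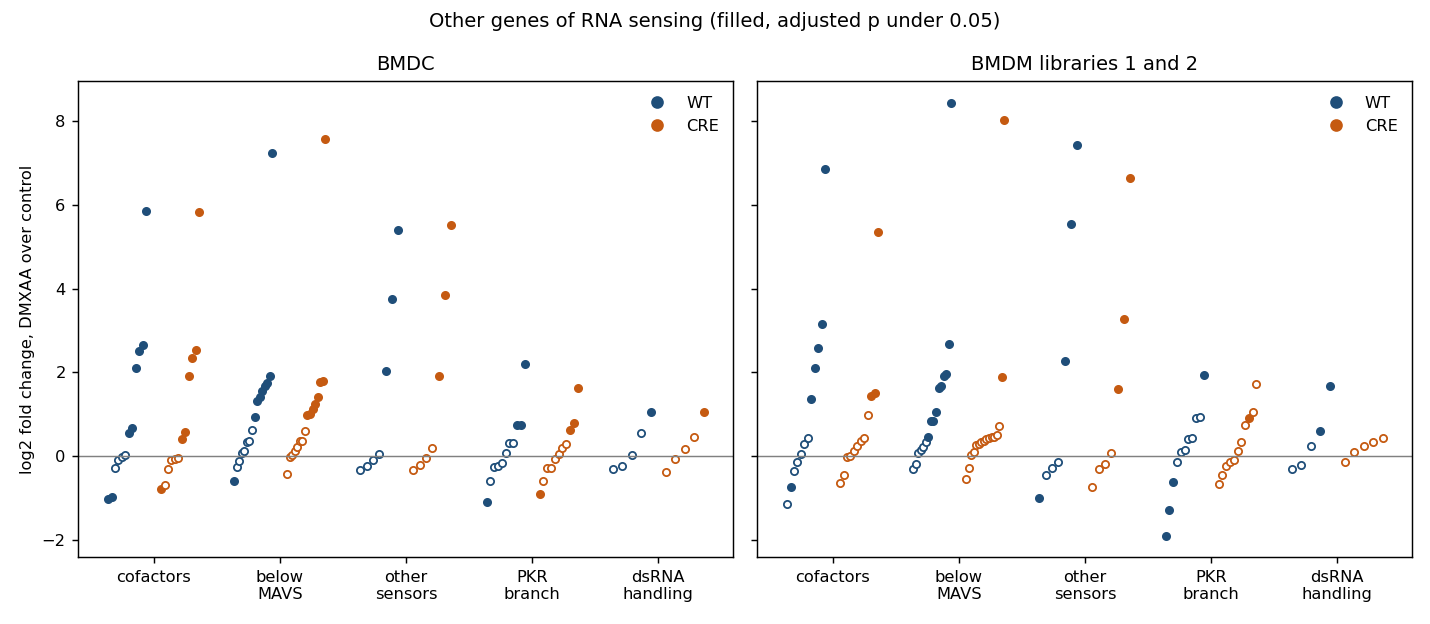
Log2 fold change of DMXAA over control for the 51 tested genes of the wider list, by sublist, in BMDCs (left) and BMDM libraries 1 and 2 (right), with the WT label in blue, CRE in orange and filled points past an adjusted p of 0.05. In BMDMs 26 genes are filled for WT and 9 for CRE.

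In WT BMDMs 21 genes of the list rose and 5 fell, and in CRE BMDMs 9 rose and 0 fell, beside 18.4% and 7.28% of all genes called higher. Of all 11569 genes, 2397 were called lower in WT and 315 in CRE. Irf7 led again, at 8.43 ± 0.31 in WT and 8.02 ± 0.31 in CRE, followed by Zbp1, a sensor of Z-form nucleic acid (7.42 and 6.64), and Ddx60 (6.84 and 5.35). Traf3 rose least below MAVS in WT (0.45) and Azi2, a TBK1 adaptor, least in CRE (1.90). Tlr7 rose least among the sensors in CRE (1.60), and Ddx3x fell in WT (-0.98). The eIF2α kinase Eif2ak3 fell in WT (-1.89 ± 0.25) and Ppp1r15b, a phosphatase subunit, rose in both (1.93 and 0.91).

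Treated CRE BMDMs had 18 of the 51 genes lower and 2 higher than WT, beside 1156 lower and 1071 higher of 11569 genes (19.2% called). Below MAVS 9 of 16 were lower, from Tank, a TBK1-binding protein (-1.90 ± 0.28), to Traf3 (-0.52 ± 0.13). Among the cofactors 5 of 12 were lower, from Rnf135, a ligase for RIG-I (-1.68 ± 0.32), to Cyld (-0.97 ± 0.21). Tlr3 was 4.01-fold lower, and Stau1 was lower in the list of RNA handling (-1.12). In the PKR branch Ppp1r15b was lower (-1.18), while Eif2ak3 and Eif2ak4, known as PERK and GCN2, were higher (1.19 and 1.18). The interaction called 5 of the 51 genes, beside 3.66% of all genes, all with a smaller response in CRE: Traf5, Ikbke, Tbk1, Ppp1r15b and Stau1. Its values ran from -1.59 ± 0.30 for Traf5 to -1.02 ± 0.17 for Ppp1r15b. Control cells gave 0 calls between the labels among the 51. Between the cell types, 6 of the 51 were higher and 10 lower in untreated WT BMDCs than BMDMs, and 4 higher and 12 lower with DMXAA. These 16 of 51 lay near the share of all genes called in either treatment (28.5% and 30.6%). Zbp1 was the highest of the other sensors relative to BMDMs without DMXAA (2.71 ± 0.25) and Tlr3 the lowest in both (-2.71 and -2.82). The responses differed for 2 of the 51, beside 2.61% of all genes. These were Zbp1 (-3.66 ± 0.32) and Ppp1r15b (-1.16 ± 0.21), both smaller in BMDCs.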

How the data were processed

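Polyadenylated RNA of 24 libraries was sequenced, with a total of 15657347 to 18912887 counts per library. Per the submitters' processing notes, CASAVA 1.8, fastp, HISAT2 2.0.5, featureCounts 1.5.0-p3 and DESeq2 1.20.0 were used on GRCm38 (mm10), and the library kit named in the labels is not stated to keep strand. The authors deposited raw counts per gene. The authors also deposited FPKM values, scaled by gene length and by library sizes that came to 1.03 to 1.16 of the count total in controls and 0.687 to 0.893 in DMXAA libraries (without BMDM number 3), so FPKM ratios are not ratios of count shares. Deposited columns of the authors' own comparisons (fold changes and p-values) were not used. All 48 columns of single libraries were matched to labels, with 0 unmatched.

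Counts were tested with the two-sided quasi-likelihood test of edgeR 4.0.16 (R 4.3.3) with TMM scaling and group means. A gene was tested if 3 or more libraries (BMDC fit) or 2 or more (BMDM and joint fits) had 1 FPKM or above, and a Benjamini-Hochberg adjusted p under 0.05 over all genes was called. BMDM fits used the 8 libraries numbered 1 and 2. Alternatives were DESeq2 1.42.0, limma 3.58.1 on log2(FPKM + 1) and log2(FPKM + 0.1), other scaling and filters, blocks, other sets of libraries, leave-one-out fits and the study's rule (unadjusted p of at most 0.05 and absolute log2 fold change of at least 1). The scripts were tested on simulated data in which 200 genes changed 4-fold. For WT DMXAA against control, 78% of these were recovered in the BMDC fit with 4 false calls. In the BMDM fit 74% were recovered with 13 false calls.

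The labels do not say what a replicate number marks or whether libraries come from separate animals, so p-values measure the spread between these libraries. Deviations of same-numbered libraries correlated between control and DMXAA of 1 label (0.395 to 0.677 in BMDCs), and numbers were read as pairing these. The main fits did not use this pairing, which entered only the alternative fits with the block within genotype. Members and lists were chosen with earlier results of these data known. Genes named beside the members are the called list genes with the largest and the smallest log2 fold change of each sublist among those whose mean reached 1 FPKM in the higher group, and the 3 nearest profiles. Ikbke and Eif2ak4 were named after their values were seen. Counting intervals cover counting error only. Figures were drawn with matplotlib 3.10.9.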

Additional observations from a re-analysis of the deposited data

Results flagged for a closer look

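The response of Ifih1 to DMXAA in BMDM libraries 1 and 2 differed between the labels by an interaction term of -1.84 on the log2 scale (adjusted p = 0.0477 in edgeR), from 2 libraries per group.

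Signal was also seen in the BMDM libraries numbered 3, which entered no main comparison and lacked leukocyte markers. The ratio of DMXAA to control FPKM was above 1 beyond counting error for 5 members in both labels. In WT it was 3.80 for Ddx58, 10.6 for Ifih1, 10.7 for Dhx58, 3.31 for Eif2ak2 and 3.09 for Adar. In CRE it was 5.03 for Ddx58, 10.7 for Ifih1, 15.9 for Dhx58, 3.96 for Eif2ak2 and 3.5 for Adar. Each ratio rests on 1 library over 1 library.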

How the results depend on the processing

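The members had at least 74 counts in every library outside the BMDM libraries numbered 3, where the lowest was 24. Of 223 refits of the 13 counts of members called, 183 stayed within 1.5 times, 28 fell and 12 rose. Of 1338 refits of the 78 log2 fold changes, 1146 kept direction and side of the threshold, 76 lost a call, 39 gained one and 77 changed sign, 0 of them for a called value. Causes were not tested. With all BMDM libraries the count was 0 for both BMDM responses, treated CRE against WT BMDMs, their interaction and both comparisons of cell types. The study's rule gave 2 for treated BMDMs (beside 1716 genes) and 2 for the BMDM interaction (beside 1186). Between cell types it gave 0 for WT controls (beside 2889), 2 for treated WT (beside 3098) and 1 for the interaction (beside 1069). Without a filter the BMDM and cell type interactions had 2 and 1 calls (beside 1342 and 836 genes), and DESeq2 gave 2 for the former (beside 1195). The doubted libraries (BMDC CRE and BMDM WT numbered 2, chosen with their values known) left out gave 2 for BMDM controls, 6 for the BMDM interaction, 0 for WT controls between cell types and 1 for the cell type interaction, with the BMDM spread then set by the CRE pairs. WT controls between cell types also had 0 in limma with either pseudocount, with the replicate block and with only the groups compared. The replicate block within genotype gave 4 for each of the BMDM and cell type interactions, and neither block moved another count by over 1.5 times but that of WT controls. Leave-one-out counts ran from 0 to 5 for treated BMDMs, 0 to 3 for the BMDM interaction, 0 to 1 for WT controls and 0 to 4 for treated WT between cell types. 

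All changes of sign were in values that the main test did not call, and every refit with the other sign was uncalled too. With the doubted libraries left out, the log2 differences of CRE against WT in BMDM controls were -0.49 for Eif2ak2 and -0.33 for Adar. That fit holds only WT number 1 beside the close CRE pair, so it has no spread between WT controls. For treated BMDCs, CRE against WT, leave-one-out values ran over Ddx58 -0.16 to 0.14, Ifih1 -0.12 to 0.17, Dhx58 -0.043 to 0.17, Eif2ak2 -0.28 to 0.24, Adar -0.47 to 0.33. For control BMDCs, CRE against WT, leave-one-out values ran over Ddx58 -0.62 to 0.012, Ifih1 -0.0597 to 0.096, Dhx58 -0.47 to 0.088, Mavs -0.26 to 0.11, Adar -0.35 to 0.10. For the BMDC interaction, leave-one-out values ran over Ddx58 -0.023 to 0.62, Ifih1 -0.13 to 0.16, Dhx58 -0.0201 to 0.54, Mavs -0.29 to 0.087, Eif2ak2 -0.018 to 0.50, Adar -0.38 to 0.42. For control BMDMs, CRE against WT, leave-one-out values ran over Ddx58 -0.14 to 0.052, Ifih1 -0.074 to 0.49, Mavs -0.035 to 0.55, Eif2ak2 -0.49 to 0.23, Adar -0.33 to 0.15. For WT controls, BMDC against BMDM, leave-one-out values ran over Ddx58 -0.063 to 0.13, Ifih1 -0.33 to 0.25, Eif2ak2 -0.20 to 0.53, Adar -0.24 to 0.25. For the cell type interaction, leave-one-out values ran over Dhx58 -0.028 to 0.37, Mavs -0.38 to 0.21. With the stricter filter the sign changed for Ddx58 0.0048 (treated BMDCs, CRE against WT). With the doubted libraries left out the sign changed for Ddx58 0.14 (treated BMDCs, CRE against WT) and Ddx58 0.012, Dhx58 0.088, Mavs 0.11, Adar 0.10 (control BMDCs, CRE against WT) and Ifih1 -0.076, Mavs -0.034 (control BMDMs, CRE against WT) and Eif2ak2 -0.18 (WT controls, BMDC against BMDM) and Dhx58 -0.051, Mavs 0.10 (the cell type interaction). With limma on log2(FPKM + 1) the sign changed for Eif2ak2 -0.00204, Adar -0.058 (treated BMDCs, CRE against WT) and Ifih1 -0.000743 (control BMDCs, CRE against WT) and Adar 0.000114 (WT controls, BMDC against BMDM) and Dhx58 -0.068 (the cell type interaction). With limma on log2(FPKM + 0.1) the sign changed for Eif2ak2 -0.0023, Adar -0.063 (treated BMDCs, CRE against WT) and Ifih1 -0.0018 (control BMDCs, CRE against WT). With the replicate block the sign changed for Eif2ak2 -0.0058, Adar -0.028 (treated BMDCs, CRE against WT) and Adar 0.0063 (WT controls, BMDC against BMDM). With no filter the sign changed for Adar -2.05e-05 (treated BMDCs, CRE against WT) and Ifih1 -0.0013 (control BMDCs, CRE against WT). With all BMDM libraries the sign changed for Ddx58 -0.32, Ifih1 0.47, Eif2ak2 -0.39, Adar 0.00903 (WT controls, BMDC against BMDM) and Mavs -0.091 (treated WT, BMDC against BMDM). With only the groups compared the sign changed for Adar 0.000401 (WT controls, BMDC against BMDM).

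Counts over all genes moved by over 1.5 times as follows. Calls for WT and CRE BMDCs with DMXAA were 3904 and 3084, against 5911 and 5181 with the block within genotype, 2594 for WT by the study's rule and 1758 for CRE with only the groups compared. The 3 BMDC genotype comparisons had 0, against 46 to 66 by the study's rule and at most 2 otherwise. For WT BMDMs 4531 became 1697 with only the groups compared and 7285 without the doubted libraries. For CRE BMDMs 1157 became 1908 to 6368, and for treated CRE against WT 2227 became 3630 without a filter and 6145 without the doubted libraries. BMDM controls went from 5 to between 0 and 2520, the BMDM interaction from 424 to between 1186 and 5334, and the cell type interaction from 349 to between 211 and 1465. All BMDM libraries together gave 0 for each BMDM comparison and for the cell type interaction, 1169 for WT controls (3812) and 1324 for treated WT (4092) between cell types, where only the groups compared gave 2708 for the latter.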
